A study of Mus musculus with 2 samples.

Results

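Interferon-stimulated genes are genes whose transcription is switched on when a cell receives an interferon signal. The set described here holds 42 such genes, chosen by a list of symbols matched to the gene names of the deposited tables, out of 31054 listed features. All 42 were found in both libraries. They were grouped by role into sensors of foreign or displaced RNA and DNA (6 genes), transcription factors (4), the IFIT and OAS families (7), the ISG15 system and other antiviral effectors (12), interferon-inducible GTPases (8), chemokines (2) and antigen processing (3).

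Type I interferons bind the IFNAR1/IFNAR2 receptor, whose kinases activate a transcription factor complex that includes STAT2 and IRF9 and binds interferon-stimulated response elements (ISREs) in promoters. Promoters that respond to interferon gamma often hold gamma-activated sites (GAS). In barrier organs such as the bladder the response limits viral and bacterial spread, and it can also be engaged by a cell's own nucleic acids when they reach the cytosol.

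The samples came from the bladder of 1 male mouse of genotype p16-CreERT2/R26-LSL-tdTomato, aged 25 months, given tamoxifen by intraperitoneal injection on 5 days with tissue taken 2 weeks after that course. Dissociated CD45-/DAPI- cells were sorted into a Tomato+ and a Tomato- group, and 1 droplet-based 3' single-cell library was made from each. Both groups share the animal, age, alleles and tamoxifen. They differ in the sort and were made into separate libraries, so effects of the sort and of the library cannot be told apart. CreERT2 is driven from p16 (Cdkn2a), so Tomato marks cells that had p16 promoter activity during the tamoxifen days and their descendants, not cells with p16 transcript at harvest.

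With 1 library per group there is no replicate, so no test between the groups was possible. Each ratio below is the Tomato+ level over the Tomato- level and carries an exact 95% interval that covers counting error only. Levels are counts of unique molecular identifiers (UMIs) summed over the cells of a class and scaled to a common total in every class and library (CPM). A gene was called measured in a class at 10 CPM or more in 1 library with at least 20 UMIs over both. It was called higher or lower at a 1.5-fold difference after adding 1 CPM to each level.

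The Tomato- library held 9905 used cells with a median of 12772 UMIs, and the Tomato+ library held 1883 with a median of 11601. Cell barcodes common to both libraries made up 6.66% of the used Tomato- cells and 18.4% of the used Tomato+ cells. Leaving them out gave member medians of -0.09 in fibroblast-like and -0.27 in endothelial-like cells on the log2 scale, against -0.09 and -0.29 with them. The tdTomato transcript followed the sort, with 18.1 CPM in Tomato- and 1789 CPM in Tomato+ fibroblast-like cells. Cdkn2a itself was scarce, at 1.35 and 5.49 CPM. The sort was CD45-, and macrophage and T or NK cell markers were low in most classes. In fibroblast-like cells the 8 macrophage markers summed to 4.45 and 6.12 CPM in Tomato- and Tomato+ cells, and the 7 T or NK cell markers to 0.206 and 0 CPM. In lymphatic endothelial-like cells the macrophage list summed to 84.7 and 91.2 CPM with 6 and 7 of its 8 genes at 0. The dendritic list summed to 274 and 174 CPM in mesothelial-like cells and to between 53.2 and 113 CPM in the endothelial classes. Of its 7 genes 4 or 5 were at 0 there, always including Flt3, Xcr1, Itgax and Cd209a. Cells were placed in classes by clusters and marker genes, and 6 classes had at least 50 cells in each library: fibroblast-like (3762 Tomato- and 690 Tomato+ cells), endothelial-like (677 and 163), lymphatic endothelial-like (197 and 89), mesothelial-like (768 and 153), basal or intermediate urothelial-like (773 and 196) and umbrella urothelial-like (1055 and 331).

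The promoters of the members were searched for these motifs. In the RefSeq promoter windows of build GRCm38.p6, which run from 250 bases before to 50 bases after a start site, 34 of the 42 members had an entry. Rtp4, Oas2, Usp18, Ifi27l2a, Dhx58, Iigp1, Zbp1 and Parp14 had none. The ISRE-type motif GAAANNGAAA (TTTCNNTTTC on the other strand) was in the windows of 18 of these 34 members (52.9%) and of 3.99% of the 27025 genes in the table. The GAS-type motif TTCNNNGAA, which reads the same on both strands, was in 10 of 34 (29.4%) against 9.55%. ISRE-type matches were found for 6 of 7 GTPases and 3 of 4 sensors, and for 0 of the 3 antigen-processing genes. A match is a description of the letters in the window and no evidence of binding.

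The promoters of the 5 members on which the cell-level results turn are given 5′ to 3′ on each gene's own strand, with ISRE-type matches in capitals.
Ifit1 (chr19:34640639-34640938, plus strand): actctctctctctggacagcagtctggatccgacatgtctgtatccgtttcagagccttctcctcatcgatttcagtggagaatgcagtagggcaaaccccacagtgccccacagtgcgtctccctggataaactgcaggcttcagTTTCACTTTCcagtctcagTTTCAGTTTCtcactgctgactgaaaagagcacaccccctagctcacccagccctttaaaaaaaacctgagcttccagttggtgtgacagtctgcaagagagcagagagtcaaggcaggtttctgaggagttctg
Ifit3 (chr19:34583279-34583578, plus strand): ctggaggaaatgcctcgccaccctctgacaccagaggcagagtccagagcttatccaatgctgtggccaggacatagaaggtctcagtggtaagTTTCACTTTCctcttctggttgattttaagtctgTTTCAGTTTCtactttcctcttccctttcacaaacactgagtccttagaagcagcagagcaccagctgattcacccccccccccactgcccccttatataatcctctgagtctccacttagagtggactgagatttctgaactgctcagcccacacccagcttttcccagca
Ifit3b (chr19:34607707-34608006, plus strand): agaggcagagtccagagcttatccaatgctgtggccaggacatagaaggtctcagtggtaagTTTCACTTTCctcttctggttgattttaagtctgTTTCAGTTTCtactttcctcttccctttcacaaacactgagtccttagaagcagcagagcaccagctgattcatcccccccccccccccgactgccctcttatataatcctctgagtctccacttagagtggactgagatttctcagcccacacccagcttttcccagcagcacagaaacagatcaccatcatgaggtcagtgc
Isg15 (chr4:156200769-156201068, minus strand): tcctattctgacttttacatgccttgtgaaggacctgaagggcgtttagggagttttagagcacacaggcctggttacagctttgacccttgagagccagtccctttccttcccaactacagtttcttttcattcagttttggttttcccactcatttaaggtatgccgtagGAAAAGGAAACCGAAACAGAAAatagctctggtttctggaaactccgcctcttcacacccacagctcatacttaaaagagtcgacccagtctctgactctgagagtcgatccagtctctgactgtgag
Rsad2 (chr12:26456403-26456702, minus strand): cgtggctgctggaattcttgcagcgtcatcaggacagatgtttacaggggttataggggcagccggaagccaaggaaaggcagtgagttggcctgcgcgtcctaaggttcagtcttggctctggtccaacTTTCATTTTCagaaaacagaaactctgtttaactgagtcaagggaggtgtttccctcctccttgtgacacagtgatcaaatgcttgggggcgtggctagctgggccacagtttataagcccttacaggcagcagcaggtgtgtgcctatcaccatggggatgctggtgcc

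Ifit1, Ifit3 and Ifit3b each carry 2 ISRE-type matches, in Isg15 3 matches overlap in 1 run, and Rsad2 has 1 match. The ends of the matches nearest the start sites lie between 56 and 178 bases upstream of them. The Ifit3 and Ifit3b windows share an identical run of 169 bases, and Ifit2, Ifit3, Ifit3b and Ifit1 lie side by side on chromosome 19 between 34550694 and 34650009 (mm10). Reads of Ifit3 and Ifit3b, and those of the closely related Oasl, Gbp and Irgm genes, can be hard to assign, so values for a single copy are uncertain. Igtp and Irgm2 overlap on the same strand of chromosome 11, and reads in the overlap cannot be told apart. Psmb9 and Tap1 overlap at their starts on opposite strands.

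Among the 6 classes compared, endothelial-like cells carried the highest level of most members. In the Tomato- library 32 of 42 members were highest there, 9 in mesothelial-like cells and 1, Ifi27l2a, in fibroblast-like cells. The leading class was clear of the second beyond both counting intervals for 24 of the 32, 6 of the 9 and for Ifi27l2a. In the smaller Tomato+ library endothelial-like cells led for 20 members, mesothelial-like for 14, lymphatic endothelial-like for 5, fibroblast-like for 2 and umbrella urothelial-like for 1. No share over all genes stands beside these counts of leading classes, so they have no background. Ifitm3 and Bst2, which many cells express without interferon, made up much of the total. Without them the summed level in endothelial-like cells was 3249 CPM in Tomato- and 2676 in Tomato+ cells (ratio 0.824, 0.795 to 0.854). In fibroblast-like cells it was 1939 and 1773 (0.914, 0.896 to 0.932), of which Ifi27l2a gave 1051 and 940.

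**Figure D1:**
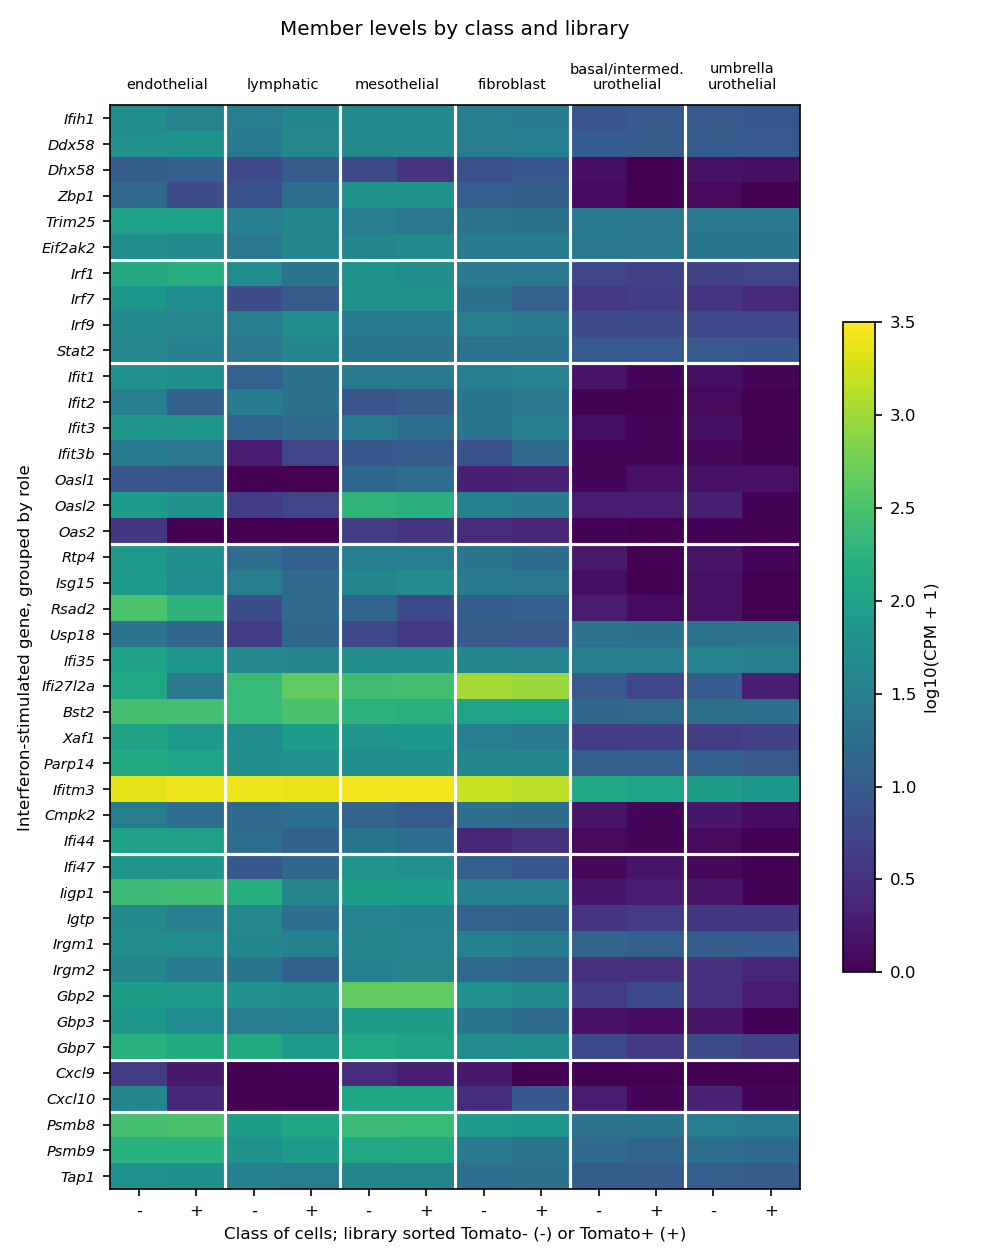
Level of each of the 42 members (vertical axis, by role) in 6 classes of cells, with the Tomato- (-) and Tomato+ (+) library side by side (horizontal axis). Colour gives log10(CPM + 1) of the summed UMIs. Rsad2 stands out in endothelial-like cells at 321 and 182 CPM, Gbp2 in mesothelial-like cells at 461 and 442.5, Ifi27l2a in fibroblast-like cells at 1051 and 940, and both urothelial classes are dark for most genes.

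Rsad2, which encodes the antiviral enzyme viperin, was the clearest endothelial member. Its Tomato- level was 321 CPM in endothelial-like cells, 12.4 in mesothelial-like, 9.94 in fibroblast-like, 5.81 in lymphatic endothelial-like, 0.886 in basal or intermediate and 0.434 in umbrella urothelial-like cells. At an equal depth of 2000 UMIs per cell (by random thinning), an Rsad2 UMI was found in 32.7% of Tomato- endothelial-like cells and in 0.0952% of those in the umbrella urothelial-like class. Without thinning the shares were 44.2% and 1.23%, with median depths of 6461 and 39295 UMIs. The endothelial-like share is thus well above that of a class whose Rsad2 level is no higher than free RNA could give. Ifi44 (99.2 CPM against 22.25 in the next class), Trim25, an E3 ligase acting on the sensor RIG-I (93.0 against 31.6), and Ifit3b (28.0 against 7.92) also had their highest Tomato- level in endothelial-like cells.

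Mesothelial-like cells, the lining of the outer bladder surface, led for a different selection. The guanylate-binding protein gene Gbp2 stood at 461 CPM there, against 89.5 in endothelial-like cells. Oasl2, a 2'-5' oligoadenylate synthetase-like gene, stood at 195 against 80.1. The nucleic acid sensor Zbp1 stood at 59.4 against 14.7. The chemokine Cxcl10, which attracts activated T cells, reached 112 CPM in mesothelial-like cells and 37.9 in endothelial-like cells. Its mesothelial-like level was uneven, with a UMI in 22.4% of Tomato- cells and 141 of the 1856 UMIs in 1 cell. Ifitm3, a membrane protein that blocks virus entry and is expressed widely without interferon, was high in all 4 classes outside the urothelium, from 1630 CPM in fibroblast-like to 2724 in mesothelial-like cells.

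The urothelium had little of most members. Summed over all 42, the Tomato- level was 374 CPM in basal or intermediate and 356 CPM in umbrella urothelial-like cells, against 5848 in endothelial-like, 5586 in mesothelial-like, 4213 in lymphatic endothelial-like and 3678 in fibroblast-like cells. For 26 of the 42 members neither urothelial class reached 5% of the highest other class. This count and the one at 25% below have no share over all genes beside them. They do not show that the members differ from other genes in this. The part of free RNA in these levels was not measured. The 4 members that reached at least 25% were Usp18 (20.7 and 20.4 CPM in basal or intermediate and umbrella cells), which removes ISG15 from proteins, Ifi35 (30.4 and 34.6), Trim25 (25.7 and 25.0) and Eif2ak2, the kinase PKR (24.1 and 22.3). Usp18 in these classes lay at the level of endothelial-like cells, 20.7 CPM, and the difference was within the counting intervals.

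The sorted groups were compared within each class. In fibroblast-like cells, the class named in the title of the series, 35 of 42 members were measured. Of these, 1 was higher and 1 lower in Tomato+ cells, against 1.23% of all measured genes higher and 1.05% lower. The member median was -0.09 on the log2 scale and that of all 8860 measured genes -0.0028. Going by the counting intervals alone, 11 of the 35 lay below 1 and 2 above it. No such count over all genes stands beside these, so they have no background.

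The transcription factor Irf7, which amplifies type I interferon production, was the lower member. It stood at 19.6 CPM (855 UMIs) in Tomato- and 11.6 CPM (74 UMIs) in Tomato+ fibroblast-like cells, a ratio of 0.592 (0.460 to 0.751). Just outside the 1.5-fold rule were Rtp4, a chaperone for membrane receptors, at 22.97 and 16.01 CPM (ratio 0.697, 0.563 to 0.855), and Gbp3 at 21.7 and 15.5 CPM (0.715, 0.575 to 0.880). Irf1, Irf9 and Stat2 had ratios of 0.949, 0.860 and 0.974, with intervals that include 1 in each case. Weighting Tomato- sub-cluster levels to the Tomato+ mix gave Irf7 at 16.8 against 11.6 CPM (0.690), inside the 1.5-fold limit. The 7 erythroid markers summed to 471 and 61.2 CPM in these fibroblast-like cells, and their part in the ratios was not tested.

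Ifit3b was the higher member, at 6.70 CPM (292 UMIs) in Tomato- and 15.9 CPM (101 UMIs) in Tomato+ fibroblast-like cells, a ratio of 2.37 (1.87 to 2.98). IFIT proteins bind viral RNA with foreign 5′ ends. Its neighbours had smaller ratios: 1.36 (1.16 to 1.60) for Ifit3, 1.12 (0.965 to 1.29) for Ifit1 and 1.11 (0.932 to 1.32) for Ifit2. The 101 UMIs of Ifit3b came from 12 of the 690 Tomato+ cells, and 48 of them came from 1 cell.

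A few cells held much of the IFIT, Isg15 and Rsad2 signal in fibroblast-like cells. In the Tomato+ library 1 cell of 12038 UMIs had 763 UMIs of members, 6.34% of its total, where the class median was 21 and the next cell had 438. This cell held 121 of the 219 Ifit1 UMIs of the class, 45 of 69 of Rsad2, 49 of 148 of Isg15 and all 50 of Cxcl10. In the Tomato- library the cell with the most had 702 member UMIs of 23339, the next had 669 and the class median was 35. Neither barcode was common to both libraries. Cells of this kind thus occurred in both groups, and in the smaller Tomato+ group 1 of them weighed more.

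Without the top cell of each library, 33 members were measured in fibroblast-like cells, 0 were higher and 5 were lower: Ifit1, Irf7, Rtp4, Isg15 and the GTPase gene Ifi47. The share over all genes was not computed without the top cells, here or in the sub-clusters below, so these counts have no background. Ifit1 then stood at 28.3 and 15.4 CPM, a ratio of 0.544 (0.438 to 0.669), and Isg15, a ubiquitin-like modifier, at 25.0 and 15.6 CPM (0.624, 0.503 to 0.767). Ifit3b came to 6.61 and 9.91 CPM and was no longer measured. Irf7 kept a ratio of 0.580 (0.450 to 0.739). The member median was -0.22. The cells left out were picked by the UMIs of these same members. The class held 690 Tomato+ and 3762 Tomato- cells, so leaving out the top cell of each library takes more from Tomato+. These ratios show how far single cells weigh and are no measure of a lower level in Tomato+ cells. The direction for Ifit1 and the call for Isg15 in fibroblast-like cells therefore turned on the top cells, and the direction and call for Irf7 did not.

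**Figure D2:**
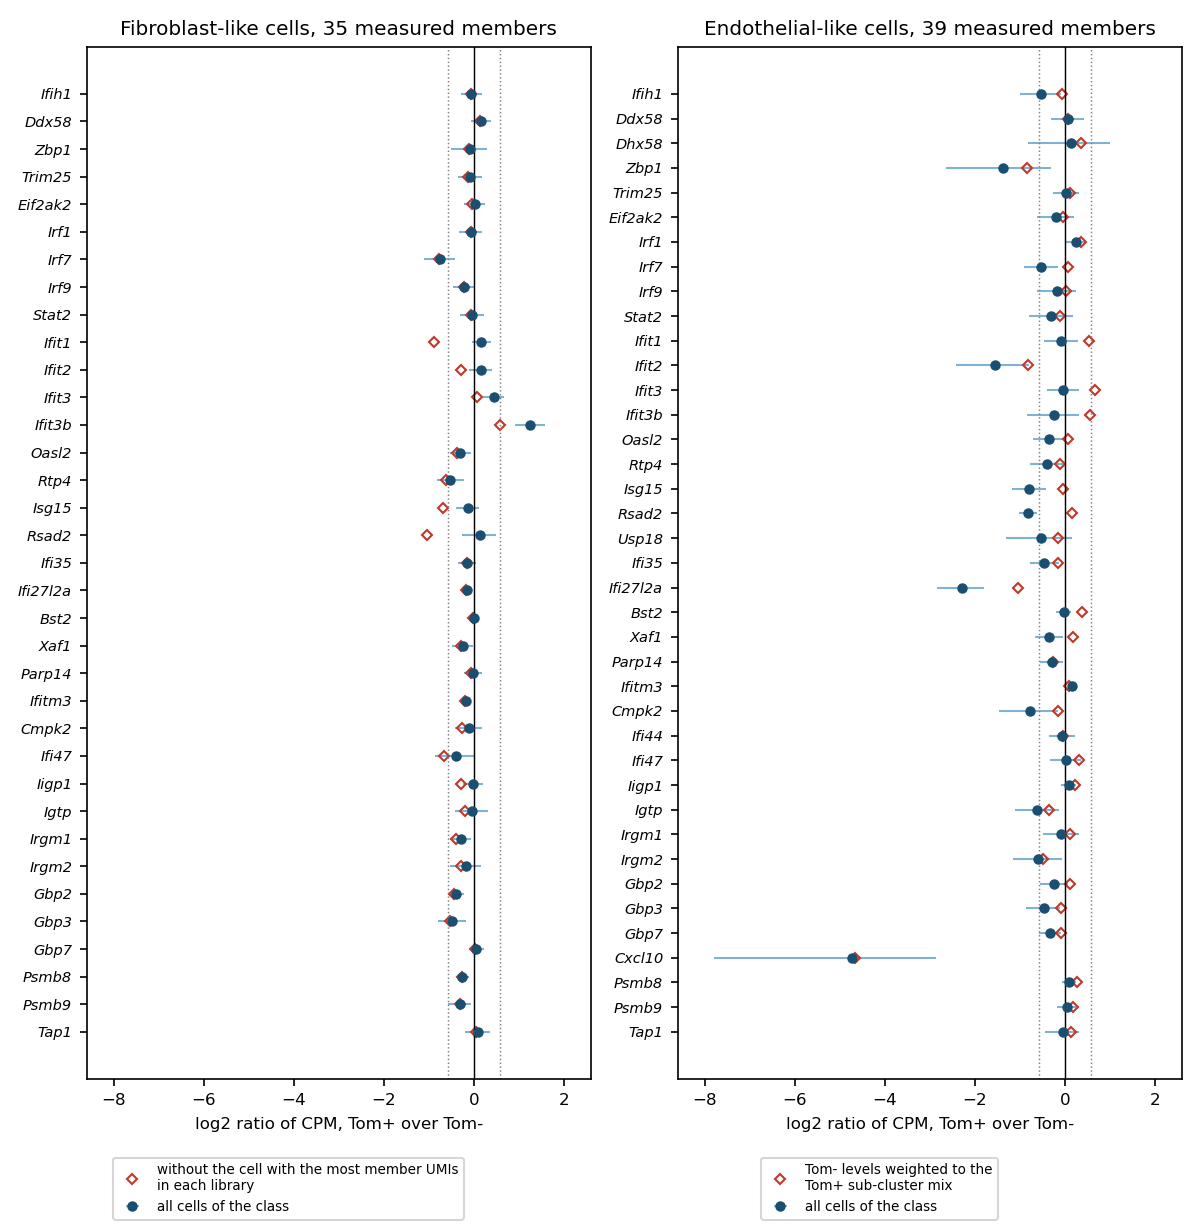
Log2 ratio of CPM, Tomato+ over Tomato- (horizontal axis), for the measured members (vertical axis, by role) in fibroblast-like (left, 35 members) and endothelial-like cells (right, 39 members). Filled points with bars are all cells with exact 95% counting intervals, dotted lines mark 1.5-fold, and open diamonds show the value without the top cell of each library (left) or with Tomato- levels weighted to the Tomato+ sub-cluster mix (right). Ifit1, Isg15 and Rsad2 move to the left of 0 on the left, and Rsad2 and Isg15 move to about 0 on the right.

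Counted per cell, the member signal was broad and low in most fibroblast-like cells. After thinning to 2000 UMIs and leaving out Ifitm3 and Bst2, Tomato- cells had a mean of 3.93 member UMIs and Tomato+ cells 3.32. Much of this sum is Ifi27l2a, which before thinning had 45796 of the 84509 Tomato- and 5991 of the 11293 Tomato+ UMIs. The sums per cell therefore largely follow that gene. Cells with 10 or more made up 6.31% (231 of 3660) of Tomato- and 3.90% (25 of 641) of Tomato+ cells. The highest sum in any 1 cell was 64 in Tomato- and 119 in Tomato+ fibroblast-like cells. Across the 3660 thinned Tomato- fibroblast-like cells Ifit1 correlated with Rsad2 at r = 0.610, with Ifit3 at 0.545 and with Isg15 at 0.398, while the median over 595 pairs of members was 0.0395. These cells share 1 library, so the correlations are a description.

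**Figure D3:**
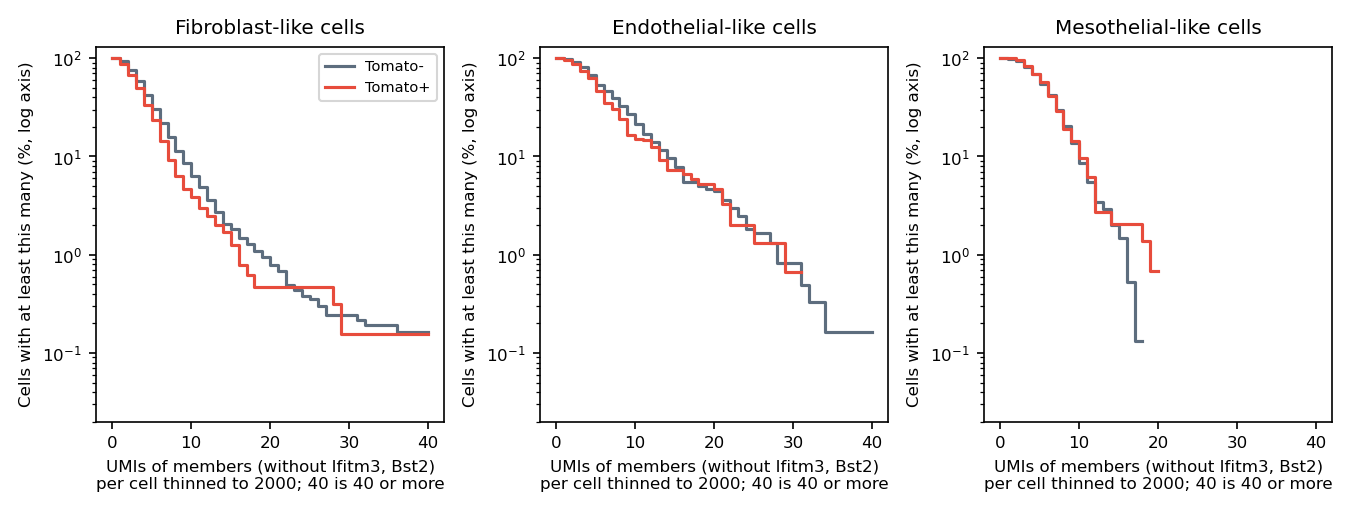
Percent of cells (vertical log axis) with at least a given number of member UMIs (horizontal axis), after thinning each cell to 2000 UMIs and without Ifitm3 and Bst2, in fibroblast-like, endothelial-like and mesothelial-like cells of the Tomato- and Tomato+ libraries. At 10 UMIs the curves stand at 6.31% and 3.90% in fibroblast-like cells and at 21.3% and 15.2% in endothelial-like cells. The curves fall most steeply in mesothelial-like cells. In fibroblast-like cells Ifi27l2a makes up much of the sum.

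The fibroblast-like class was not uniform. Sub-clusters are called by number and leading genes. In sub-cluster 0 (Gucy1a1, Cxcl12; 872 Tomato- and 287 Tomato+ cells) 31 members were measured, 0 were higher and 11 lower in Tomato+ cells, against 2.81% of all measured genes higher and 2.03% lower. Ifit1 stood at 16.3 and 2.22 CPM there (ratio 0.136, 0.0435 to 0.326), Isg15 at 20.3 and 8.87 (0.438, 0.260 to 0.699) and the GTPase gene Iigp1 at 25.4 and 10.7 (0.419, 0.262 to 0.642). Sub-cluster 0 holds the largest share of Tomato+ fibroblast-like cells. Its share of cells with 10 or more thinned member UMIs was 5.52% in Tomato- and 2.21% in Tomato+ cells.

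Sub-cluster 2 (Bglap2, Stmn2; 727 and 111 cells) had 1 member higher and 14 lower of 35, against backgrounds of 4.49% and 4.05%. Without the top cells the counts were 1 and 11 of 33. Ifit1 stood at 40.96 and 10.6 CPM (0.259, 0.132 to 0.457) and Ifit3 at 32.3 and 11.5 (0.355, 0.187 to 0.617). Irf7 was lower in sub-clusters 0, 2 and 4, with ratios of 0.596, 0.483 and 0.527, although only the interval in sub-cluster 2 (0.228 to 0.911) leaves out 1.

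Sub-cluster 1 (Cxcl14, Cck; 895 and 45 cells) went the other way, with 20 members higher and 1 lower of 38, against backgrounds of 9.48% and 11.3%. It contains the top Tomato+ cell. Without that cell 6 were higher and 3 lower of 34, and Ifit1 changed from 25.9 and 283 CPM to 25.9 and 18.0. Its share of cells with 10 or more thinned member UMIs was 10.2% (89 of 877) in Tomato- and 23.8% (10 of 42; 12.1% to 39.5%) in Tomato+ cells. Ifi27l2a, which enters that sum, stood at 1490 and 2067 CPM in this sub-cluster. Sub-cluster 3 (Tes, Stmn2; 552 and 90 cells) had 2 members higher and 1 lower of 36 (backgrounds 3.37% and 5.50%), and the higher were Ifit3 and Ifit3b, with 66 and 48 of their 77 and 57 Tomato+ UMIs in 1 cell. Sub-cluster 4 (Col6a5, Cilp; 420 and 102 cells) had 0 higher and 4 lower of 31 (5.70% and 5.69%). Sub-cluster 6 (108 and 39 cells, shallow) had 4 measured members, none past 1.5-fold in either direction (15.1% and 22.2%).

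In endothelial-like cells 39 members were measured, 0 were higher and 8 lower in Tomato+ cells. Of all 8869 measured genes 2.24% were higher and 10.1% lower, so genes in general leaned the same way in this class. The member median was -0.29 and the all-gene median -0.10. Rsad2 stood at 321 CPM (1550 UMIs) in Tomato- and 182 CPM (256 UMIs) in Tomato+ cells, a ratio of 0.568 (0.496 to 0.649). Isg15 stood at 84.9 and 49.2 CPM (0.579, 0.442 to 0.749) and Ifi27l2a, a mitochondrial protein gene of the IFI27 family, at 119 and 24.2 CPM (0.203, 0.140 to 0.288).

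The other 5 lower members were Cxcl10, Ifit2, Zbp1, the mitochondrial nucleotide kinase gene Cmpk2 and Igtp, with ratios of 0.0376, 0.340, 0.388, 0.582 and 0.655. The Cxcl10 difference rested on few cells, since 21 Tomato- cells had a UMI and 1 of them held 61 of the 183. Just outside the rule was Irgm2 at 0.662. Genes of antigen processing had ratios near 1. Psmb8 and Psmb9, immunoproteasome subunits, had ratios of 1.06 (0.953 to 1.18) and 1.03 (0.885 to 1.19), and the peptide transporter gene Tap1 0.965 (0.741 to 1.25). Ifitm3 was slightly above 1 at 1.11 (1.07 to 1.15).

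Marker genes of other cells also differed between the endothelial-like groups. The 7 erythroid markers summed to 971 CPM in Tomato- and 82.7 CPM in Tomato+ cells, and the 9 fibroblast markers to 1253 and 268 CPM. The 7 T or NK cell markers were at 0 in both. Tomato- erythroid-like cells had 301 CPM of Rsad2 and 318 CPM of Isg15, which is more Isg15 than any class compared. The part of these markers in the member ratios was not tested.

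Endothelial sub-clusters differed widely in Rsad2. In Tomato- cells Rsad2 stood at 846 CPM in an unnamed sub-cluster led by Esm1 (202 cells), 418 in capillary-like cells (Cd36; 122 cells) and 201 in arterial-like cells (Gkn3; 73 cells). It stood at 41.6 in a sub-cluster led by Adamtsl1 (115 cells) and at 20.6 and 26.7 in the venous-like sub-clusters led by Cpe (96 cells) and Atf3 (69 cells). Cells with 10 or more thinned member UMIs made up 43.5% of Tomato- cells in the Esm1 sub-cluster and between 4.17% and 26.5% in the others. Esm1 marks endothelial tip cells in growing vessels.

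Members differed in where they were highest. Isg15 was 182 CPM in the Esm1 sub-cluster and 133 in arterial-like cells, against 16.04 to 54.7 elsewhere. Ifi27l2a was highest in arterial-like cells at 651 CPM, against 27.5 to 77.2 elsewhere. Irf1, an early-response factor, was highest in the Atf3 sub-cluster at 268 CPM. There the 22 dissociation and immediate-early genes summed to 32855 CPM, against 6632 to 14887 in the other 5, and their part in the Irf1 level was not tested. Ifitm3 ranged only from 1997 to 2769 CPM.

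**Figure D4:**
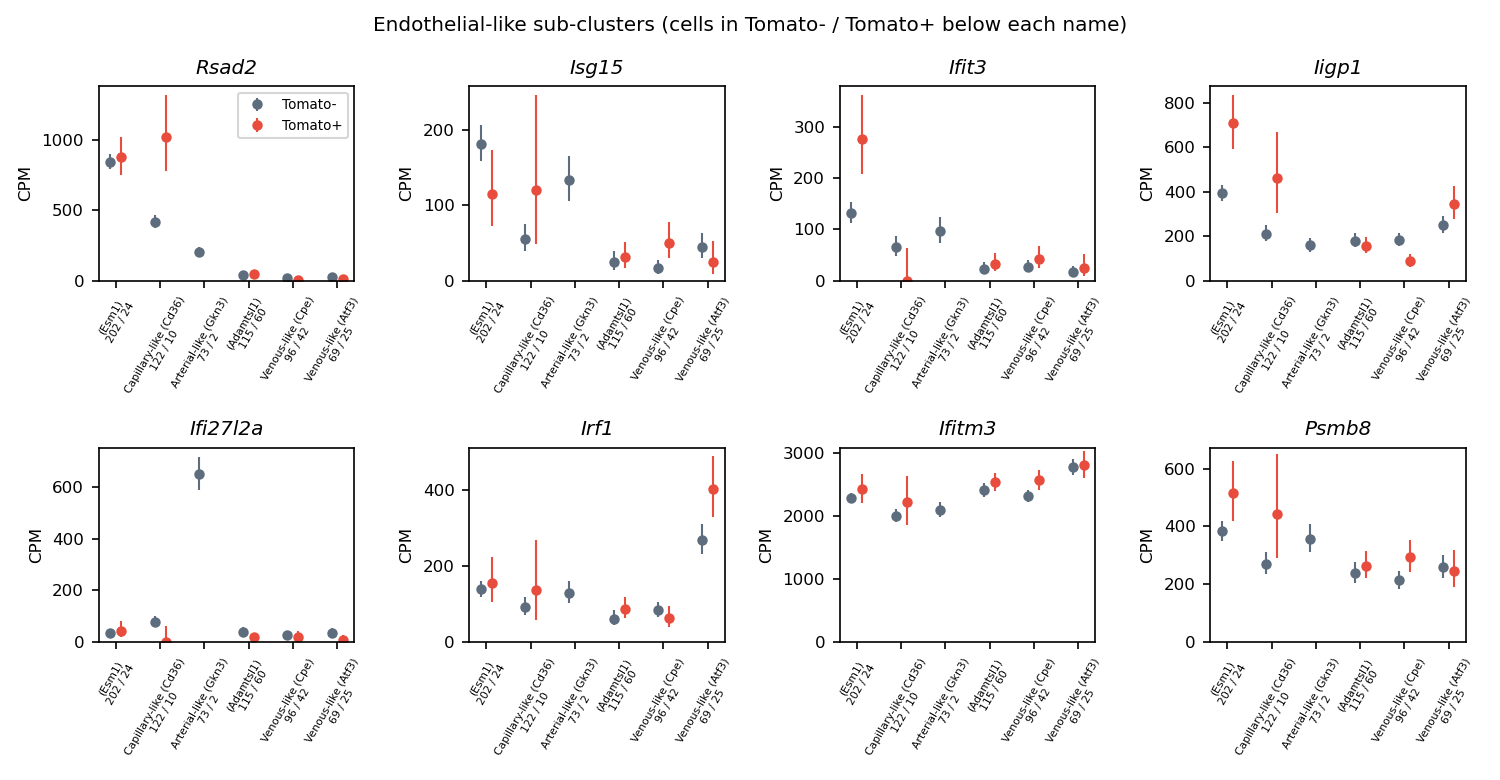
CPM (vertical axis) of 8 members in 6 endothelial-like sub-clusters (horizontal axis, cells in the Tomato- and Tomato+ library below each name), with exact 95% counting intervals; the arterial-like sub-cluster has 2 Tomato+ cells and no Tomato+ point. Rsad2 in Tomato- cells runs from 846 CPM in the Esm1 sub-cluster down to 20.6 in the venous-like sub-cluster led by Cpe.

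The sub-clusters were filled unequally by the sort. The Esm1, capillary-like and arterial-like sub-clusters held 202, 122 and 73 of the 677 Tomato- cells but 24, 10 and 2 of the 163 Tomato+ cells. When Tomato- sub-cluster levels were weighted to the Tomato+ mix, an alternative added after the data were seen, the expected Rsad2 level was 163 CPM against the 182 observed, a ratio of 1.12. Isg15 came to 50.9 against 49.2 (0.966) and Irf7 to 47.0 against 49.2 (1.05). The member median changed from -0.29 to 0.06, with 1 member higher (Ifit3, 40.6 against 64.8 CPM) and 4 lower. The share over all genes was not computed at that mix. The lower level of Rsad2 and Isg15 in Tomato+ endothelial-like cells was thus not seen at an equal mix of sub-clusters. The 4 members still lower at that mix were Cxcl10 (0.0397), Ifi27l2a (0.484), Zbp1 (0.558) and Ifit2 (0.566). Igtp (0.788) and Cmpk2 (0.894) stayed below 1 but inside the 1.5-fold limit.

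Of the endothelial-like sub-clusters 2 had at least 30 cells of each library. In the Adamtsl1 sub-cluster 32 members were measured, with 2 higher (Irf9 and Bst2) and 2 lower (Ifi27l2a and Parp14), against backgrounds of 7.88% and 11.2%. Bst2, which encodes tetherin, stood at 161 and 311 CPM (1.94, 1.51 to 2.50). In the venous-like sub-cluster led by Cpe 3 of 32 were higher and 12 lower, against backgrounds of 6.55% and 17.0%. Isg15 was higher there, at 16.04 and 49.8 CPM on 14 and 19 UMIs (3.102, 1.47 to 6.69), and Iigp1 was lower, at 185 and 86.4 CPM (0.468, 0.312 to 0.685).

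In mesothelial-like cells most members differed little between the groups. Of 36 measured members 0 were higher and 1 lower, against 1.36% and 1.47% of all measured genes, and the median was -0.04. The lower member was Rsad2, at 12.4 CPM (205 UMIs) in Tomato- and 4.97 CPM (15 UMIs) in Tomato+ cells, a ratio of 0.401 (0.221 to 0.677). That Tomato- level is under 5% of the endothelial-like one, and over all used Tomato- cells Rsad2 stood at 17.1 CPM. The part of free RNA in the mesothelial-like level was not measured. Over 16 alternative settings the log2 ratio of Rsad2 in this class lay between -1.76 and -0.72. In 1 of them free RNA was subtracted at an assumed 5%. That setting cannot show how much of this low level is free RNA. The 7 erythroid markers summed to 495 and 37.8 CPM in this class and the dendritic list to 274 and 174, and their part was not tested. Of the members that led in mesothelial-like cells, Gbp2 (461 and 442.5 CPM), Cxcl10 (112 and 114) and Zbp1 (59.4 and 60.7) had ratios between 0.961 and 1.02. For Cxcl10, 1 Tomato+ cell held 70 of the 343 UMIs. Oasl2 stood at 195 and 166 CPM (0.852, 0.774 to 0.936), and Gbp7 at 122 and 98.8 (0.808, 0.713 to 0.913), both inside the 1.5-fold limit. Without the barcodes common to both libraries, which are 63 of the 153 Tomato+ cells, 1 member was higher and 2 lower.

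Lymphatic endothelial-like cells, the smallest class, had 7 members higher and 6 lower of 30, against backgrounds of 8.32% and 11.9%. The intervals leave out 1 for 3 of the 7 and 4 of the 6. The higher count was 13 with no level filter, 4 after thinning and 3 at a 50 CPM limit, and the lower count was 2 under each of the last-named settings. Ifi27l2a stood at 233 CPM (280 UMIs) in Tomato- and 447 CPM (201 UMIs) in Tomato+ cells, a ratio of 1.92 (1.60 to 2.31), and Xaf1, a pro-apoptotic gene, at 49.0 and 91.2 CPM (1.86, 1.22 to 2.82). Irf9 had a ratio of 1.84 (1.05 to 3.18). Iigp1 stood at 150 CPM (181 UMIs) in Tomato- and 37.8 CPM (17 UMIs) in Tomato+ cells, a ratio of 0.252 (0.143 to 0.414), and 3 more GTPases, Igtp, Irgm2 and Gbp7, were lower at 0.404, 0.515 and 0.566. Oasl1, Oas2, Cxcl9 and Cxcl10 had no UMI in either library. Erythroid markers summed to 905 and 82.3 CPM in this class and fibroblast markers to 1370 and 307 CPM, and their part was not tested.

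In the urothelial classes few members were measured and none passed 1.5-fold. There were 10 in basal or intermediate and 9 in umbrella urothelial-like cells, with medians of -0.07 and -0.09. The backgrounds were 0.115% higher and 0.256% lower in the first class, and 0.0667% and 0.347% in the second. In basal or intermediate urothelial-like cells 3 members were higher when cells had at least 5000 UMIs, and 6 at Leiden resolution 0.5. The share over all genes was not computed under those settings, so these counts cannot be set against the backgrounds. Usp18 had ratios of 0.934 (0.771 to 1.12) and 0.991 (0.856 to 1.14).

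Transcripts of the ligands were almost absent in these CD45- cells, and cells with CD45 were not sampled. Over all used cells Ifnb1 and every listed Ifna gene had 0 UMIs in both libraries, which allows up to 3 UMIs per library (a one-sided limit), Ifng 1 UMI in Tomato- cells, and Ifne, an epithelial interferon, 34 UMIs in Tomato- and 12 in Tomato+ cells. Receptors were present. In fibroblast-like cells 5 of 6 receptor genes were measured, and none was past 1.5-fold. In endothelial-like cells 5 receptor genes were measured, of which 0 were higher and 2 lower, in a class where 10.1% of all genes were lower. The type I receptor gene Ifnar1 stood at 101 and 65.6 CPM (0.650, 0.514 to 0.814), and Il10rb, a subunit of the lambda receptor, at 147 and 75.5 CPM (0.513, 0.414 to 0.630).

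A wider list held 57 other interferon-stimulated genes. In fibroblast-like cells 0 were higher and 1 lower of 29 measured, against 1.23% and 1.05% of all genes, the lower being Slfn2 (11.3 and 6.12 CPM). In endothelial-like cells 1 was higher and 11 lower of 39, against 2.24% and 10.1% of all genes. The lowest ratios were those of Apol9a (20.9 and 5.70 CPM) and Lgals3bp (45.1 and 18.5 CPM). Mx1, a classical antiviral GTPase, had 36 UMIs in Tomato- and 6 in Tomato+ fibroblast-like cells. Of MHC class I genes and their processing outside the members, 0 were past 1.5-fold among 14 in fibroblast-like and 17 in endothelial-like cells, and B2m, the class I light chain, had ratios of 1.05 (1.02 to 1.09) and 1.003 (0.957 to 1.05).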

How the data were processed

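Single-cell RNA was measured in 2 libraries, Tomato- and Tomato+, from 1 mouse. The authors deposited raw UMI counts per gene and cell barcode. Reads were processed with Cell Ranger 7.0.0 against mm10, per the submitters' processing notes, while the software version in the matrix is 3.0.2, per the file headers. How barcodes were selected is not given in the sources used here.

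The deposited tables held 13551 Tomato- and 2783 Tomato+ barcodes, of which 10595 and 1893 had at least 1000 UMIs, 500 genes and at most 15% mitochondrial UMIs. Predicted doublets (Scrublet in scanpy 1.11.5, per library), 690 cells (6.51%) and 10 cells (0.528%), were left out. Cells were clustered with Leiden (leidenalg 0.10.2, resolution 1, 2000 variable genes, 30 components, 15 neighbours) without interferon-stimulated genes. Clusters were named from marker lists, with "-like" added, and sub-clusters were made at resolution 0.5. A difference from the study's own cell types may come from these rebuilt names. For each class the UMIs of a gene were added up and scaled by the total of that class. Intervals are exact Poisson (levels), conditional binomial (ratios) and Clopper-Pearson (shares), computed with scipy 1.17.1 at 95%. Log2 ratios add 1 CPM to each level, and ratios add nothing. edgeR 4.0.16 gave TMM scaling as an alternative only. The scripts were tested on simulated data.

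Any of the 42 members could be named. Of other pathway lists, the 2 highest and 2 lowest ratios and a few genes of the pathway could be. One pathway gene is not reported here. Members and lists were chosen with earlier results of these data known. Alternatives changed the cell filter, doublets, clustering, class rule, common barcodes, scaling, weighting, thinning, free RNA, pseudocount, level filter, top cells and sub-cluster mix. Gene positions are from GENCODE vM21 and promoter sequences from RefSeq, build GRCm38.p6.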

Additional observations from a re-analysis of the deposited data

Results flagged for a closer look

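Ifi27l2a had opposite directions in the 2 vascular classes. Its ratio of Tomato+ to Tomato- level was 1.92 in lymphatic endothelial-like cells and 0.203 in endothelial-like cells, each library giving 1 value per class. The difference was not tested. In Tomato- endothelial-like cells 1 cell held 69 of the 575 UMIs, and in Tomato+ lymphatic endothelial-like cells 1 held 33 of 201. The share of lymphatic endothelial-like cells with a UMI was 51.8% in Tomato- and 44.9% in Tomato+, opposite in direction to the ratio. Weighted to the Tomato+ sub-cluster mix, the endothelial-like ratio was 0.484.

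Some members were higher in Tomato- cells outside the 6 classes compared than in any of those classes. Ifit2 stood at 107 CPM in Schwann-like cells, on 31 UMIs from 49 cells. Isg15 stood at 318 CPM in erythroid-like cells, on 515 UMIs. Ifi27l2a stood at 1095 CPM in the unnamed cluster 4, on 12223 UMIs, against 1051 CPM in fibroblast-like cells.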

How the results depend on the processing

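No paired analysis was possible because each group has 1 library, so the groups share a single replicate number and no test was run. With 1 library each, differences between mice or between sorts were not measured, and in small classes the counting error limits what can be seen. Leaving out top cells and weighting to the Tomato+ mix were chosen after seeing the data. The cause of the changes below was not tested. Shares over all genes were not computed for the alternative settings, so their counts of members have no background.

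In fibroblast-like cells the member median (-0.09) was -0.22 with the stricter cell filter (2000 UMIs, 1000 genes, 10% mitochondrial), -0.21 when interferon genes entered the clustering, -0.0014 with a per-cell marker gate, -0.20 at equal weight per cell, -0.19 after thinning, -0.17 at 50 CPM, -0.24 without each gene's top cell and -0.22 without the top cell of each library. The count of 1 higher member became 0 with the stricter filter, clustering with interferon genes, equal weight, 50 CPM, without top cells by either rule and as a mean over sub-clusters, and 2 with the gate, thinning or no level filter. The count of 1 lower member became 0 with the gate, 5 CPM added, 50 CPM or the Tomato+ mix, and 2 at 5000 UMIs per cell, resolution 0.5 or no level filter. It became 3 at equal weight, 4 with the stricter filter, thinning or without each gene's top cell, and 5 with interferon genes clustered, as a mean over sub-clusters or without the top cells.

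In endothelial-like cells the median lay between -0.36 and 0.06 over 17 settings, and 0.058, at the Tomato+ mix, was the only one above 0. The higher count was 3 as a mean over sub-clusters and 1 at the Tomato+ mix, and the lower count 3 at 50 CPM and 4 at that mix. Among members called higher or lower, log2 ratios changed sign for Rsad2 (0.17, Tomato+ mix), Isg15 (0.95, mean over sub-clusters) and Igtp (0.20, thinned) in endothelial-like cells, for Ifit3b in fibroblast-like cells (-0.093) and for Ifit1 in lymphatic endothelial-like cells (-1.37), both as means over sub-clusters. Among members not called, sign changes were also seen, reaching 0.42 for Gbp2, 0.51 for Ifit1, 0.66 for Ifit3, 0.063 for Irf7 and 0.035 for Gbp3 in endothelial-like cells, and 0.13 for Gbp2, 0.080 for Isg15, -0.17 for Ifit3, -0.99 for Ifit1, -1.37 for Rsad2, -2.44 for Cxcl10, 0.11 for Irf1 and 0.059 for Usp18 in fibroblast-like cells. The basal or intermediate urothelial-like median (-0.07) became 0.086 with the stricter filter, 0.35 at 5000 UMIs, 0.29 at resolution 0.5, 0.026 with interferon genes clustered and 0.0049 with the gate. Its count of higher members, 0, became 3 at 5000 UMIs, 6 at resolution 0.5 and 1 with no level filter, and its count of lower members lay between 0 and 4. In umbrella urothelial-like cells the counts lay between 0 and 2 higher and 0 and 4 lower.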
